A study of Mus musculus with 36 samples.

Results

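The chemokines Cxcl9, Cxcl10 and Cxcl11 and their shared receptor Cxcr3 were followed through a mouse model of colitis-associated colon cancer. They were taken as a named group of 4 genes among the 17097 genes measured, each represented by its brightest probe set on average across the 36 arrays. The arrays held total RNA of whole colon or of colon tumors from Il17rc knockout mice (KO), which lack part of the receptor that senses the cytokines IL-17A and IL-17F, and from wild-type mice (WT). Mice were 6 to 8 weeks old and were either left untreated (day 0) or given azoxymethane, a colon carcinogen, followed by 3 cycles of 5 days of 3% dextran sulfate sodium, which injures the colon lining, and 14 days of plain water. Day 7 and day 15 came before that schedule could be complete, and the labels do not say how much of it those mice had received. The groups were KO untreated, KO day 7, KO day 15 and KO tumors at day 63, and WT untreated, WT day 7, WT day 15 and WT tumors at day 63, with 4 arrays each before the tumor stage and 6 arrays each for tumors. The labels give neither the strain nor the cells in which Il17rc was deleted, and the day 7, day 15 and tumor groups all share azoxymethane and dextran sulfate sodium. They do not say that the arrays of a group came from separate animals, so p-values refer only to the spread among these samples, which may be technical.

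Cxcl9, Cxcl10 and Cxcl11 are small secreted proteins that attract activated T cells and natural killer (NK) cells by binding the G protein-coupled receptor Cxcr3 on those cells. Their genes are classical targets of interferon-gamma. Cxcl10 is also induced by type I interferons and by tumor necrosis factor through NF-kappaB. In the gut they can be made by macrophages, dendritic cells, endothelium and the epithelium itself, and they are raised in intestinal inflammation.

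The 3 chemokine genes are neighbours on mouse chromosome 5, in the order Cxcl9, Art3, Cxcl10 and Cxcl11, and Cxcr3 lies on the X chromosome. In the RefSeq annotation of the GRCm38.p6 build Cxcl11 is listed as a transcribed pseudogene, while Cxcl9, Cxcl10 and Cxcr3 are protein-coding. These mice may therefore make no Cxcl11 protein, and the RNA intensities do not show whether they did. RefSeq promoter entries of that build matched 3 of the 4 genes. The 250 bases upstream of the start sites of Cxcl10 (chr5:92348890-92349139, minus strand) and Cxcl9 (chr5:92328080-92328329, minus strand) are shown because these are the members with the largest changes. Letters are given 5′ to 3′ on the gene's strand, and capitals mark matches to the searched motifs.
Cxcl10: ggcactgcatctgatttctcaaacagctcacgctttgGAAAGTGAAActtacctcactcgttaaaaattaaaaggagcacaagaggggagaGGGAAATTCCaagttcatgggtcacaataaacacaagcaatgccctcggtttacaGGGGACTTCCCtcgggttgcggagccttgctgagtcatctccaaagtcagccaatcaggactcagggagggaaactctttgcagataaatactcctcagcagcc
Cxcl9: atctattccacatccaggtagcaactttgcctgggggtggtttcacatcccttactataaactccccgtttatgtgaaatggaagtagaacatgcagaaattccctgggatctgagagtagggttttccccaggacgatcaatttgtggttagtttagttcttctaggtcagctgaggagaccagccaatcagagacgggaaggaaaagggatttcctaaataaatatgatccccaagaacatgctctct
Searched on both strands were the core of the interferon-stimulated response element (GAAA, any 2 bases, GAAA), TTCNNNGAA (the core of the gamma-activated site) and the NF-kappaB consensus. The Cxcl10 window held the response element core at -213 to -204 and NF-kappaB matches at -159 to -150 and at -104 to -94, where overlapping matches on both strands share the run of capitals. The NF-kappaB consensus was searched as GGG, A or G, any 2 bases, 2 bases that are each C or T, and CC. The Cxcl9 and Cxcr3 windows held no exact match to these 3 patterns, and near matches were not searched. Of 32851 RefSeq promoter windows of the same length, 2.98% held the response element core, 7.02% held TTCNNNGAA and 7.25% held the NF-kappaB consensus.

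The arrays had median intensities between 14 and 16, and 36% of genes had a mean below 16, the level taken here as near background. Summed intensity of 10 colon epithelium markers lay between 28583 and 45164 on all arrays. Il17rc, the deleted gene, read 7 to 15 in untreated KO colons, against 248 to 330 in untreated WT colons. On 2 arrays labelled KO day 7 it read higher than on all other KO arrays. Replicate 1 read 331, near the untreated WT level, and replicate 2 read 44, below every WT array. Results for that group are therefore stated for arrays labelled KO day 7, and differences of the members are repeated without both arrays. The squamous keratin Krt5 exceeded 100 on 7 arrays, namely KO tumor replicate 2, replicates 1 and 2 labelled KO day 7, and replicates 1 and 4 of both WT day 7 and WT untreated. Differences of the members that used them were repeated without these arrays, and calls that changed are given.

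Cxcl9, the member with the widest range, was bright in untreated KO colons and near background in untreated WT colons. On arrays labelled KO its intensities were 380, 519, 532 and 559 untreated, 12, 12, 11 and 16 at day 7 and 315, 237, 220 and 229 at day 15, and KO tumors ranged from 21 over a median of 142 to 880. In WT colons they were 30, 10, 9 and 12 untreated, 14, 17, 52 and 20 at day 7 and 351, 196, 63 and 13 at day 15, and WT tumors ranged from 40 over a median of 124.5 to 547. Arrays labelled KO were thus high before treatment and low at day 7, and replicates within a KO group before the tumor stage were close to each other. Their coefficient of variation was 16.1% in untreated KO colons and 17.5% in KO day 15 colons, whereas it was 97.2% in WT day 15 colons, 118% in KO tumors and 95.4% in WT tumors. By mean intensity the order was KO untreated (497.5), KO tumors (284), KO day 15 (250.25), WT tumors (208.5), WT day 15 (155.75), WT day 7 (25.75), WT untreated (15.25) and KO day 7 (12.75). Each group's range overlapped that of its neighbour in this order.

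Cxcl10 was likewise low at day 7 among arrays labelled KO, at lower intensities of its own probe set. On arrays labelled KO it read 66, 170, 98 and 198 untreated, 25, 16, 12 and 15 at day 7 and 108, 286, 141 and 192 at day 15, and KO tumors ranged from 23 over a median of 42.5 to 295. In WT colons it read 21, 13, 14 and 12 untreated, 11, 24, 153 and 60 at day 7 and 117, 46, 21 and 18 at day 15, and WT tumors ranged from 21 over a median of 54 to 124. The day 7 WT arrays had the widest ratio of highest to lowest reading for this gene, with replicate 3 at 153 and replicate 1 at 11. By mean the order was KO day 15 (181.75), KO untreated (133), KO tumors (90.8), WT tumors (65.2), WT day 7 (62), WT day 15 (50.5), KO day 7 (17) and WT untreated (15), and all neighbours overlapped.

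Cxcr3, the receptor, stayed low on every array, between 7 and 31. On arrays labelled KO it read 15, 16, 21 and 16 untreated, 9, 8, 8 and 8 at day 7 and 30, 13, 23 and 31 at day 15, and KO tumors ranged from 8 over a median of 14.5 to 22. In WT colons it read 9, 9, 7 and 8 untreated, 8, 10, 11 and 8 at day 7 and 25, 14, 12 and 14 at day 15, and WT tumors ranged from 10 over a median of 11.5 to 17. The means ran from 24.25 in KO day 15 colons over 17 in untreated KO colons to 8.25 both on the arrays labelled KO day 7 and in untreated WT colons. All neighbours in that order overlapped as well.

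Cxcl11 was near background throughout, between 7 and 15. It read 8, 9, 9 and 13 in untreated KO colons, 7, 8, 7 and 7 on the arrays labelled KO day 7 and 14, 15, 10 and 14 in KO day 15 colons, and KO tumors ranged from 7 over a median of 8.5 to 15. WT colons read 10, 7, 7 and 8 untreated, 7, 7, 8 and 7 at day 7 and 10, 8, 7 and 11 at day 15, and WT tumors ranged from 8 over a median of 8.5 to 11. Only the KO day 15 group had most of its arrays above 13. A second Cxcl11 probe set read 6 to 10 on all arrays. With a filter on a mean of 16 or more, Cxcl9 (188.4) and Cxcl10 (77.03) passed and Cxcl11 (9.111) and Cxcr3 (13.83) did not.

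**Figure D1:**
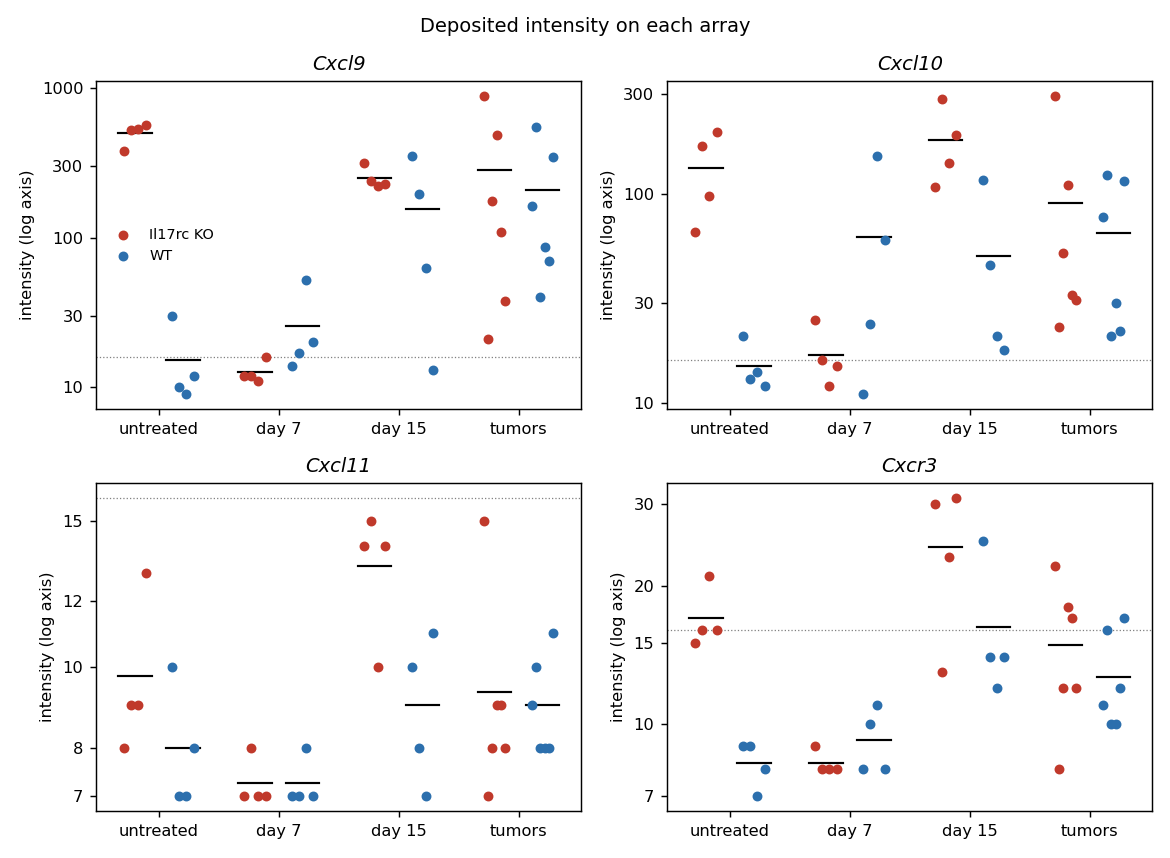
Deposited intensity of the 4 genes (log axis) on each of the 36 arrays, KO left of WT at each stage; points are arrays, bars are group means and the dotted line marks an intensity of 16. Untreated KO arrays of Cxcl9 lie between 380 and 559 and untreated WT arrays between 9 and 30, while tumors of both genotypes spread widely.

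The first comparison set untreated KO colons against untreated WT colons. Genotype was not the only difference between them, because Krt5 was high on WT replicates 1 and 4 and on no untreated KO array. Cxcl9, Cxcl10 and Cxcr3 were higher in KO colons, and Cxcl11 did not pass the test. In limma's model over all arrays, the log2 difference of normalized intensity (KO minus WT) was 5.03 ± 0.88 for Cxcl9 (SE, n = 4 each, adjusted p = 0.000398), with 3 of the 4 WT arrays near background, which leaves its size dependent on the pseudocount. For Cxcl10 it was 2.95 ± 0.72 (limma adjusted p = 0.0177). For the receptor Cxcr3 it was 0.98 ± 0.23 (limma adjusted p = 0.011). In each of the 3 every KO array lay above every WT array. How many of all genes were separated in this way was not counted, here or in the later comparisons. Cxcl11 differed by 0.26 ± 0.16 (adjusted p = 0.54 by limma) and its groups overlapped. So 3 of 4 members were called higher in a comparison in which 2.28% of genes were called, 1.79% as higher and 0.485% as lower in KO. The members' median was 1.96, against 0 over all genes. A log2 difference here is taken after adding 1 to the intensity, and for genes near background it understates the change. Because the RNA came from whole tissue, fewer cells of a type and less RNA per cell cannot be told apart.

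The Cxcl9 call held without the Krt5-rich arrays, at 5.51 ± 1.07 against the 2 remaining WT arrays (limma adjusted p = 0.00438). The sizes for Cxcl10 (3.06) and Cxcr3 (1.01) were then as large, with adjusted p = 0.0912 and 0.0618. The Cxcl10 call was also lost without WT untreated replicate 4 (adjusted p = 0.0578), KO untreated replicate 2 (0.0709) or KO untreated replicate 4 (0.0718), and the Cxcr3 call without KO untreated replicate 3 (0.0638) or when the title-code letter entered the model (0.98, adjusted p = 0.0687).

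Genes on either side of the Cxcr3 chemokines were examined in the same comparison. Of the interferon-gamma-induced genes, 14 of 14 measured were higher in untreated KO colons, with a median log2 difference of 3.26. They included Ubd, a ubiquitin-like modifier (6.42 ± 0.62), Ido1, a tryptophan-degrading enzyme (6.82 ± 0.78), and the immunoproteasome subunits Psmb8 (3.03 ± 0.35) and Psmb9 (3.41 ± 0.42), and all 14 kept their call without the Krt5-rich arrays. Upstream, 4 of 10 genes of interferon-gamma and its receptor pathway were higher: the transcription factors Irf1 (1.66 ± 0.27), Irf9 (1.62 ± 0.26) and Irf8 (1.36 ± 0.25), and Ifng itself (0.46 ± 0.10), with a list median of 0.35. Ifng averaged 12.75 in KO and 9 in WT, near background in both, and its call was lost without the Krt5-rich arrays (adjusted p = 0.0882). Of 13 inducers of interferon-gamma only Il15ra, the receptor chain that presents interleukin-15, was called higher (0.65 ± 0.18), and leaving out any of 6 of the 8 arrays ended that call. The list medians stood beside a median of 0 over all genes.

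Genes of T and NK cells were examined next. Of 20 T and NK cell genes, 8 were higher in untreated KO colons and 0 lower, with a median of 0.67: the granzymes Gzma (3.45 ± 0.31) and Gzmb (2.83 ± 0.33), the chemokine Ccl5 (4.06 ± 0.54), the cytotoxic granule protein Nkg7 (1.63 ± 0.23), and Cd3d, Cd3g, Cd2 and Cd3e. Without the Krt5-rich arrays 5 of the 8 were called, and leaving out single arrays gave 5 to 8 calls, with 5 without KO untreated replicate 2. Summed intensity of 5 T cell markers was 135 to 271 in untreated KO colons and 61 to 73 in untreated WT colons, and 4 of the 5 were called higher. For 5 NK cell markers the sums were 113 to 160 in KO and 64 to 75 in WT, with 1 of 5 called, while the defining markers Ncr1 and Klrb1c read 7 to 11 in both. For 10 monocyte and macrophage markers the sums were 2504 to 3926 in KO and 1172 to 2359 in WT, with 1 of 10 called (Cx3cr1), and 0 of 10 colon epithelium markers were called. The 9 squamous markers summed to 115 to 213 in KO and 103 to 34738 in WT, with 0 called. Dendritic cell markers summed to 62 to 77 in KO and 50 to 56 in WT. For B cell markers the sums were 70 to 877 in KO and 68 to 101 in WT, and for neutrophil markers 63 to 79 and 71 to 3592. The part of these cell types in the differences of Cxcl9, Cxcl10 and Cxcr3 was not tested.

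Other CXC chemokines did not move with them as a list. Of 11 measured, only Cxcl16, the ligand of Cxcr6, was higher in untreated KO colons (0.97 ± 0.24, limma adjusted p = 0.0209), and its call ended when WT replicate 2 or 3 or KO replicate 2 or 3 was left out. The neutrophil chemokines Cxcl5 (-2.91 ± 1.14) and Ppbp (-3.53 ± 1.67) had lower values but did not pass the test. The list median was -0.24, and 0.23 without the Krt5-rich arrays. Of 5 other CXC receptors and genes that handle CXCR3 ligands, Cxcr6 was higher (1.19 ± 0.25), with adjusted p = 0.124 without the Krt5-rich arrays. Dpp4, a peptidase that trims these chemokines, differed by 0.68 ± 0.32 without passing. Of 13 genes of NF-kappaB, tumor necrosis factor and type I interferon signalling, Irf7, an interferon-induced transcription factor, was higher (2.31 ± 0.41). So was the NF-kappaB subunit Relb (0.54 ± 0.15), whose call ended when any of 6 of the 8 arrays was left out.

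**Figure D2:**
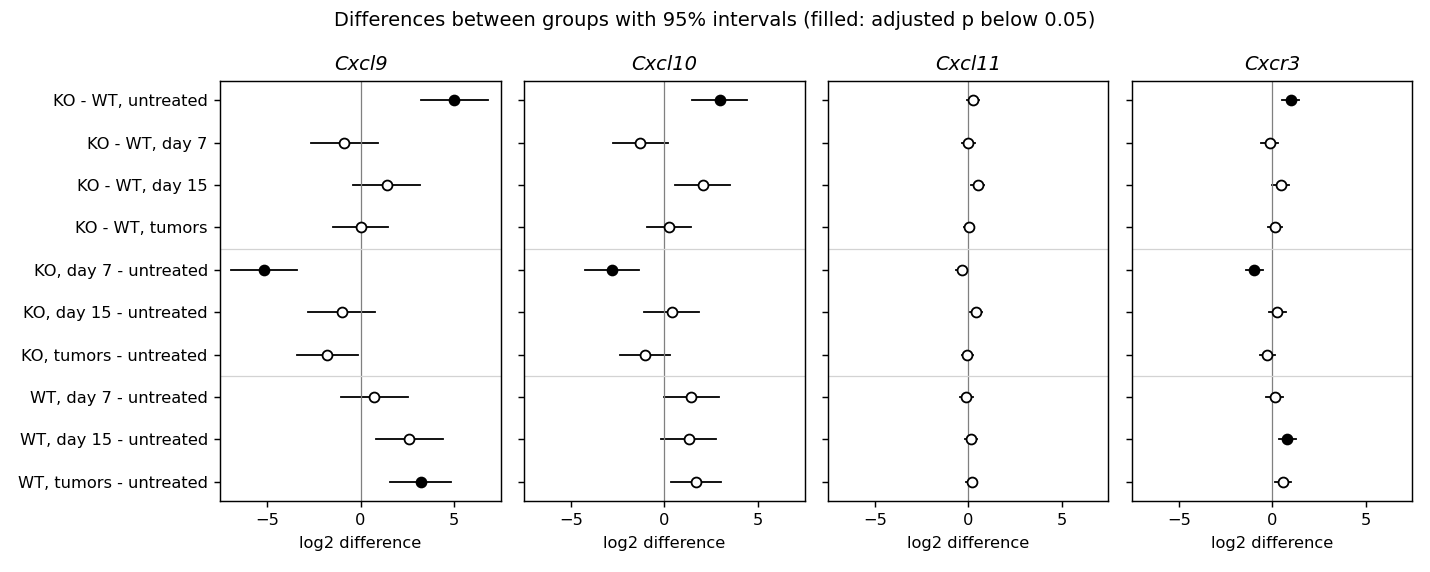
Log2 differences with 95% intervals of the limma model for KO against WT at each stage and for each stage against untreated within a genotype; filled points passed the adjusted threshold. Cxcl9 lies at 5.03 between untreated KO and WT and at -5.17 between KO day 7 and untreated, and Cxcl11 stays between -0.37 and 0.49 in the comparisons drawn.

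Within KO mice, day 7 was compared with untreated colons. Cxcl9, Cxcl10 and Cxcr3 fell on the arrays labelled KO day 7, with log2 differences (day 7 minus untreated) of -5.17 ± 0.88, -2.81 ± 0.72 and -0.98 ± 0.23 (limma adjusted p = 0.000122, 0.00854 and 0.00346), and the groups did not overlap. Cxcl11 differed by -0.37 ± 0.16 (limma adjusted p = 0.141). So 3 of 4 members were called lower in a comparison in which 12.2% of genes were called, 6.58% as lower. The members' median was -1.90, against 0.01 over all genes. Without the 2 arrays with high Il17rc the values were -5.10, -3.11 and -1.02 (limma adjusted p = 0.00321, 0.0268 and 0.0218), so these calls did not rest on them. No array left out on its own ended them.

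Interferon-gamma-induced genes fell alongside, 14 of 14, with a median of -2.95. Examples were Ubd (-5.88 ± 0.62), Cd74, the invariant chain of antigen presentation (-3.91 ± 0.47), and the GTPase Irgm1 (-2.93 ± 0.36). Without the 2 arrays with high Il17rc 13 of 14 were called. Of 20 T and NK cell genes 12 fell, among them Gzma (-3.47 ± 0.31), Gzmb (-2.70 ± 0.33) and Ccl5 (-4.24 ± 0.54), and 9 of 20 without those 2 arrays. Leaving out any single array of the 2 groups gave 10 to 11. Irf8 (-1.49 ± 0.25) and Irf1 (-1.49 ± 0.27) fell too. T cell markers summed to 59 to 68 on the arrays labelled KO day 7 and 135 to 271 in untreated KO colons. Monocyte and macrophage markers summed to 662 to 1529 on the arrays labelled KO day 7 and 2504 to 3926 in untreated KO colons, and 8 of 10 were called lower. Of B cell markers 2 of 6 and of dendritic cell markers 2 of 5 were called lower. Their part in the fall of the chemokines was not tested.

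In KO day 15 colons all 4 members were higher than on the arrays labelled KO day 7. The log2 differences (day 15 minus day 7) were 4.16 ± 0.88 for Cxcl9, 3.20 ± 0.72 for Cxcl10, 0.75 ± 0.16 for Cxcl11 and 1.24 ± 0.23 for Cxcr3, with limma adjusted p = 0.000724, 0.00134, 0.000799 and 0.000139 and no overlap of the groups. This was 4 of 4 members where 25.2% of genes were called, 12.5% as higher, with a median of 2.22 for the members and -0.03 over all genes. Leaving out the 2 arrays with high Il17rc kept all 4 calls (4.09, 3.50, 0.79 and 1.28). The second Cxcl11 probe set differed by 0.09 (limma adjusted p = 0.462), so the rise of Cxcl11 was seen on 1 of its 2 probe sets.

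The day 15 rise covered other chemokines as well. Of 11 other CXC chemokines 5 rose, including Cxcl13, which attracts B cells (5.97 ± 0.91), the neutrophil chemokine Cxcl2 (5.16 ± 0.91) and Cxcl16 (1.92 ± 0.24), and 3 without KO day 15 replicate 4. Of interferon-gamma-induced genes 13 of 14 rose (median 2.20), and of T and NK cell genes 13 of 20 (median 0.73). T cell markers summed to 127 to 426 in KO day 15 colons and 59 to 68 on the arrays labelled KO day 7, with 5 of 5 called. For monocytes and macrophages the sums were 4622 to 13812 in KO day 15 colons and 662 to 1529 on the arrays labelled KO day 7, with 10 of 10 called. Neutrophil markers summed to 3158 to 17610 and 59 to 5320 in the same groups, with 4 of 5 called. B cell markers summed to 178 to 2045 in KO day 15 colons and 61 to 75 on the arrays labelled KO day 7, with 5 of 6 called higher. Dendritic cell markers summed to 66 to 138 in KO day 15 colons and 51 to 55 on the arrays labelled KO day 7, with 4 of 5 called higher. Of endothelial markers 4 of 6 were called higher, and of smooth muscle markers 5 of 6 were called lower. The part of these cells in the rise of the members was not tested.

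Against untreated KO colons, KO day 15 colons had 0 of 4 members called, where 0.813% of genes were called. Cxcl9 differed by -1.01 ± 0.88, with all day 15 arrays below all untreated arrays, and Cxcl10 by 0.39 ± 0.72. KO tumors against untreated KO colons also had 0 of 4 called, where 20.8% of genes were called, 9.92% as lower. Cxcl9 differed there by -1.79 ± 0.80 (limma adjusted p = 0.12). Without KO tumor replicate 1, the brightest tumor array, it differed by -2.31 and passed (limma adjusted p = 0.03). In the same comparison 14 of 14 interferon-gamma-induced genes fell (median -2.19). Between KO tumors and KO day 15 colons 1 of 4 members was called lower, where 14.7% of genes were called, 6.1% as lower. It was Cxcl11, at -0.46 ± 0.15 (limma adjusted p = 0.0321), and its groups overlapped. That call was lost without any of KO tumor replicates 2, 3 or 6 or KO day 15 replicates 1, 2 or 4, and on the second probe set (-0.09). Cxcl10 differed by -1.42 ± 0.66 (limma adjusted p = 0.145), and passed without KO tumor replicate 1 (-1.87, limma adjusted p = 0.0385). Cxcr3 differed by -0.53 and passed without KO tumor replicate 1 (-0.63, limma adjusted p = 0.0333) or KO day 15 replicate 2 (-0.73, 0.0186).

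In WT mice no member was called at day 7 against untreated, where 1.66% of genes were called. Cxcl10 differed by 1.43 with a 95% interval from -0.04 to 2.90, and Cxcl9 by 0.74 ± 0.88. Without the Krt5-rich arrays, which left 2 arrays in each group, Cxcl10 differed by 2.17 and was not called. Cxcl10 passed with array weights (2.02, limma adjusted p = 0.024). WT day 7 replicate 4 weighed 7.97 there, against 0.57 to 0.747 for the rest of its group, and so dominated that group. At day 15, 1 of 4 members was called against untreated WT colons, where 3.38% of genes were called, 2.1% as higher. It was Cxcr3, at 0.80 ± 0.23 (limma adjusted p = 0.0429), with every day 15 array above every untreated array. That call ended without any of the 4 untreated WT arrays, without WT day 15 replicate 1 or 2, and held under 6 of 21 alternative settings in all. Cxcl9 differed by 2.62 ± 0.88 (limma adjusted p = 0.0931). Without WT day 15 replicate 4, where it read 13, it differed by 3.54 and passed (limma adjusted p = 0.0187). WT day 15 colons against WT day 7 colons had none of the members called, where 2.99% of genes were called, and Cxcr3 differed by 0.66 ± 0.23 with no overlap of the groups (limma adjusted p = 0.103).

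WT tumors had more Cxcl9 than untreated WT colons, by 3.24 ± 0.80 on the log2 scale (n = 6 and 4, limma adjusted p = 0.00341), and every tumor array lay above every untreated array. Cxcl10 (1.68 ± 0.66, limma adjusted p = 0.0626) and Cxcr3 (0.55 ± 0.21, limma adjusted p = 0.0504) missed the threshold, and Cxcl11 differed by 0.17. Cxcl10 passed without WT tumor replicate 3 (1.93, limma adjusted p = 0.0393) or 5 (1.91, 0.0454), and Cxcr3 without WT tumor replicate 3 (0.61, 0.0396) or 4 (0.61, 0.0401). Both also passed with array weights (0.0294 for Cxcl10 and 0.034 for Cxcr3), in a fit of only the groups compared (0.0375 and 0.0274) and with a replicate block in that fit (0.0337 and 0.041), and Cxcl10 with dim genes left out (0.0469). So 1 of 4 members was called higher where 22.8% of genes were called, 12.6% as higher, and the members' median was 1.12 against 0.02 over all genes. The Cxcl9 value without the Krt5-rich arrays was 3.71 (limma adjusted p = 0.011). Of interferon-gamma-induced genes 6 of 14 were higher, including Ubd (3.84 ± 0.57) and Ido1 (4.58 ± 0.71), and leaving out single arrays gave 4 to 8. T and NK cell genes were higher for 6 of 20, with Gzmb at 1.61 ± 0.30 and Cd3d, a T cell receptor subunit, at 1.73 ± 0.37. T cell markers summed to 106 to 237 in WT tumors and 61 to 73 in untreated WT colons, with 3 of 5 called. Monocyte and macrophage markers summed to 6317 to 9081 in WT tumors and 1172 to 2359 in untreated WT colons, with 7 of 10 called. B cell markers summed to 128 to 729 in WT tumors and 68 to 101 in untreated WT colons, with 2 of 6 called. Neutrophil markers overlapped, at 1739 to 7406 in WT tumors and 71 to 3592 in untreated WT colons, with 3 of 5 called, and 6 of 6 smooth muscle markers were called lower. The part of these cells in the Cxcl9 difference was not tested. WT tumors and WT day 15 colons had 0 of 4 members called between them, where 20% of genes were called.

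After treatment began, no member passed the test between KO and WT. On day 7 arrays 0 of 4 members were called between KO and WT, where 0.298% of genes were called, and Cxcl10 differed by -1.29 ± 0.72. Without the 2 arrays with high Il17rc no member was called, and Cxcl9 differed by -0.8 and Cxcl10 by -1.59. Without the Krt5-rich arrays, which left 2 arrays in each group, no member was called either, and Cxcl10 differed by -2.22. With array weights, where WT day 7 replicate 4 dominated its group, 3541 genes were called in place of 51, Cxcl10 among them (limma adjusted p = 0.00601). Leaving out single arrays gave 13 genes (WT day 7 replicate 3) to 529 (WT day 7 replicate 1). At day 15 none was called either, where 0.222% of genes were. Those were 38 genes, but 5 when WT day 15 replicate 1 was left out and 121 when replicate 4 was. KO day 15 colons had the higher mean of each member, and the 95% interval of the Cxcl10 difference ran from 0.59 to 3.52 around 2.06 (limma adjusted p = 0.253). In tumors 0 of 4 were called where 0.0526% of genes were. The tumor differences were 0.01 for Cxcl9 with a 95% interval from -1.46 to 1.47, 0.24 for Cxcl10 from -0.96 to 1.44, 0.02 for Cxcl11 from -0.25 to 0.29 and 0.16 for Cxcr3 from -0.22 to 0.53. The Cxcl9 interval reached more than 1 log2 unit to either side of 0, so equal tumor levels were not shown.

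Whether the genotypes changed differently was tested as an interaction, the KO change minus the WT change. From untreated to day 7 it was -5.91 ± 1.24 for Cxcl9 (limma adjusted p = 0.00609) and -4.24 ± 1.02 for Cxcl10 (limma adjusted p = 0.0177), where 2.37% of genes were called, 1.73% with a negative interaction. Cxcr3 gave -1.12 ± 0.32 (limma adjusted p = 0.055), and -1.17 with a call without WT day 7 replicate 1 (0.036). It also passed with array weights (0.00734), in a fit of only the groups compared (0.000658) and with a replicate block in that fit (0.00209). Cxcl11 gave -0.26. Without the 2 arrays with high Il17rc Cxcl9 stood at -5.83 and Cxcl10 at -4.54, both called, and without WT day 7 replicate 3 Cxcl10 was at -3.57 and not called (limma adjusted p = 0.0657). From untreated to tumors only Cxcl9 passed, at -5.02 ± 1.14 (limma adjusted p = 0.0188), where 0.784% of genes were called, 0.714% with a negative one. That call was lost without the Krt5-rich arrays (-4.98, limma adjusted p = 0.106). For day 15 none of the members passed, where 0.0819% of genes were called, and Cxcl9 stood at -3.63 ± 1.24 (limma adjusted p = 0.448). Interferon-gamma-induced genes were called for 14 of 14 at day 7 (median -3.64) and for 14 of 14 in tumors (median -3.04). Without the Krt5-rich arrays these counts were 10 and 9. All these interactions share the untreated groups with each other and with the untreated comparison of KO and WT.

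**Figure D3:**
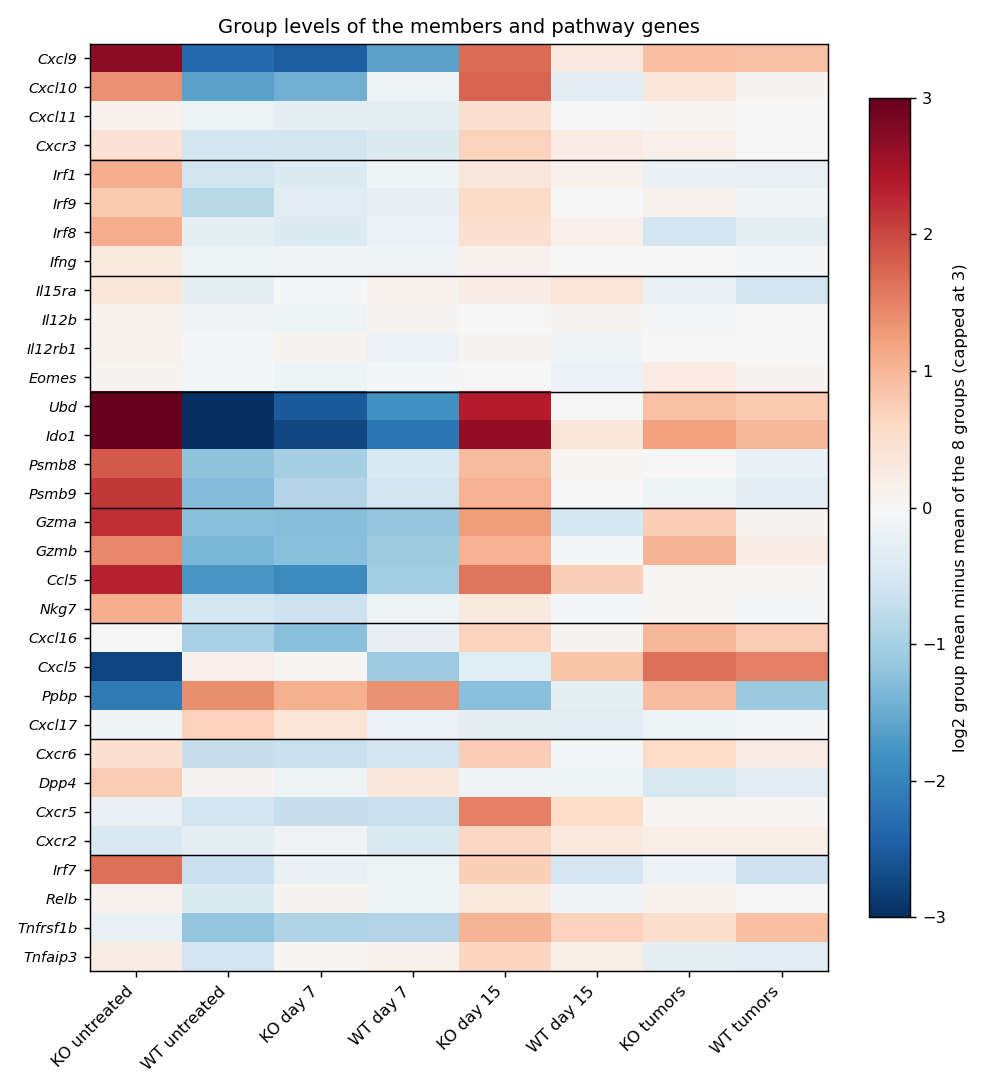
Mean normalized log2 level of each group minus the mean of the 8 groups, for the 4 members and for the 4 genes with the smallest p between untreated KO and WT in each of 7 gene lists separated by lines; KO stands left of WT at each stage and colours are capped at 3. The column of untreated KO colons is high for Cxcl9, Cxcl10, Ubd, Ido1, Psmb8, Psmb9, Ccl5 and Gzma, and the next column of untreated WT colons is low for them. Cxcl5, Ppbp, Cxcl17 and Cxcr2 are lower in the KO column of this pair. The list genes were picked by their p between these columns, so their contrast there is no separate evidence.

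Single arrays held the highest or lowest reading of several members in some groups and not in others. In KO tumors replicate 1 had the highest and replicate 2 the lowest reading of all 4 members, with Cxcl9 at 880 and 21 (a 41.9-fold range) and Cxcl10 at 295 and 23 (12.8-fold). KO tumor replicate 2 was also the tumor array with Krt5 above 100. In WT day 15 colons replicate 1 was the highest for Cxcl9, Cxcl10 and Cxcr3, while replicate 4 had the lowest Cxcl9 (13) and Cxcl10 (18) and the highest Cxcl11 (11). In KO day 15 colons replicate 2 had the highest Cxcl10 (286) and the lowest Cxcr3 (13). WT day 7 replicate 3 was the highest of its group for all 4, and WT tumor replicate 2 was the highest for Cxcl9 and Cxcl10.

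Over the 36 arrays, which share groups and processing, Pearson's r was 0.867 between Cxcl9 and Cxcl10 and 0.854 between Cxcl9 and Cxcr3 on the normalized log2 scale. After group means were subtracted, r was 0.832 and 0.708. Cxcl11 was less alike the others, with 0.66 to Cxcl9 and 0.728 to Cxcl10, and 0.499 and 0.607 after subtraction.

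The genes whose pattern over the 36 arrays was most like each member were looked up among 10935 genes with a mean intensity of 16 or more. For Cxcl9 they were Ido1 (r = 0.952), Gbp10 (0.947), Ubd (0.934), Cd3g (0.923) and Tgtp1 (0.922). For Cxcl10 they were Rsad2 (0.875), Ifit2 (0.864), Tgtp1 (0.841), Trim21 (0.839) and Iigp1 (0.835). For Cxcl11 they were Herc6 (0.841), Ccl7 (0.779), Slfn2 (0.766), Ifit2 (0.76) and Phf11a (0.745), and for Cxcr3 they were Cd3d (0.938), Gimap7 (0.932), Ms4a4b (0.928), Slamf8 (0.921) and Itgb7 (0.92). With group means subtracted the first gene of the Cxcl9, Cxcl10 and Cxcr3 sets kept r = 0.884 (Ido1), 0.856 (Rsad2) and 0.897 (Cd3d). Many of the genes beside Cxcl9, Cxcl10 and Cxcl11 are known as interferon-induced, and Cd3d, Cd3g and Itgb7 are T cell receptor subunits and an integrin chain of gut lymphocytes. Ifng itself had r = 0.499 with Cxcl9 and -0.0756 after subtraction, at intensities near background, and Irf1 had 0.773 and 0.791.

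**Figure D4:**
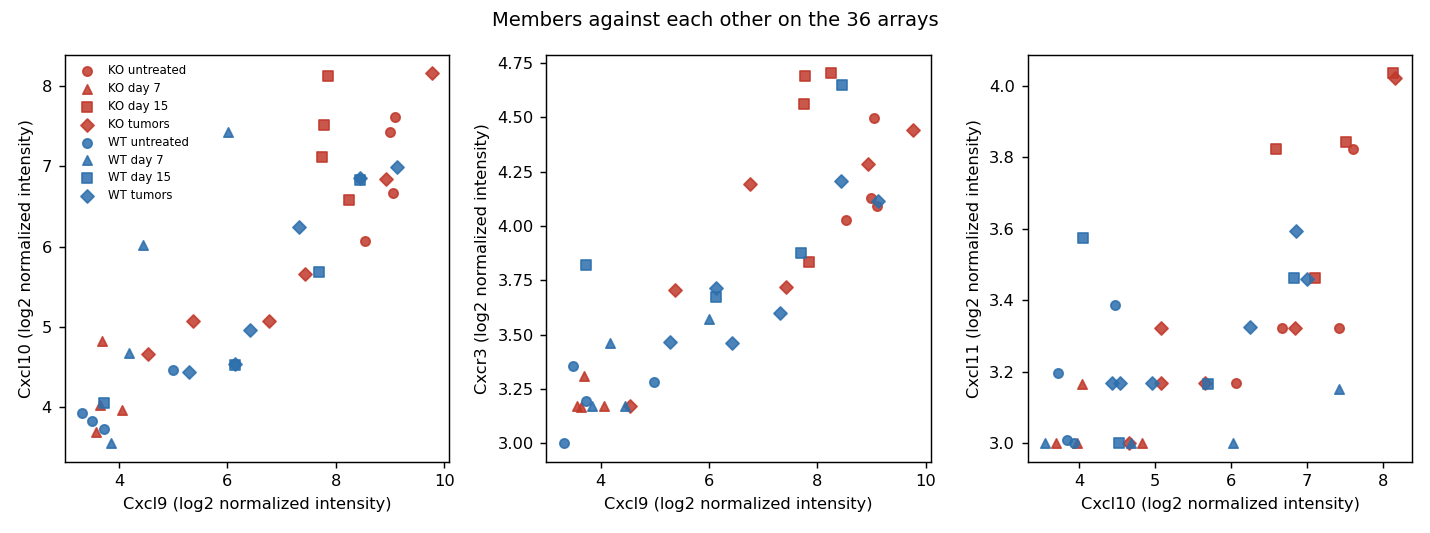
Normalized log2 intensity of Cxcl10 against Cxcl9, Cxcr3 against Cxcl9 and Cxcl11 against Cxcl10; each point is 1 of the 36 arrays, coloured by genotype and shaped by stage. Cxcl9 and Cxcl10 run together over the whole range (r = 0.867), whereas Cxcl11 stays at its lowest values on many arrays.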

How the data were processed

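Per the labels' protocols, total RNA of minced and homogenized colon was biotin-labelled and hybridized, 1 array per sample. The deposited values are linear intensity, 1 value per probe set and array, in whole numbers from 4 to 14185, and how they were background-corrected, normalized and summarized was not given in the sources used here. An array has no read depth, and the number of arrays limits the precision. Of 45037 probe sets, 28898 had 1 gene symbol, 551 several and 15588 none, and only the first kind was used. Each intensity plus 1 was log2-transformed, quantile normalized over all probe sets, and reduced to the brightest probe set of each of 17097 genes. Each of 17 comparisons was fitted with limma 3.58.1 in R 4.3.3 as 8 group means over 36 arrays with moderated, intensity-trended variances, and p-values were adjusted by Benjamini-Hochberg over all genes at 0.05. The procedure was tested on simulated data. The members, gene lists and tests were chosen with earlier results of these data known. Of each list the text names up to 4 genes with the smallest p, and the 5 genes most alike each member, with Il17rc and Krt5 as checks. Cd3d, Cd3g, Cd2, Cd3e, Cx3cr1, Ncr1 and Klrb1c in list counts were named after their values were seen. Tap1, Il27, Lck, Cxcl3, Cxcr1, Cxcr4, Ackr1 and Nfkb1 were not analysed here. Equal replicate numbers deviated together (every pair's r above 0.1) only in 2 comparisons, KO against WT day 15 (0.186 to 0.817) and WT day 7 against untreated (0.201 to 0.423), as seen in the data and not stated in the labels. A replicate block changed no member call in those comparisons. Alternatives covered the pseudocount, normalization, filter, probe set, variance moderation, array weights, samples in the fit, title-code position, replicate block and left-out arrays.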

Additional observations from a re-analysis of the deposited data

Results flagged for a closer look

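In 9 of 32 groups (4 genes in 8 groups) an array lay far from the others, measured as its gap to the nearest array over the range of its group. About 1 in 20 groups would be picked by chance if readings were normally distributed. Linear whole-number intensities with ties need not follow that rate, so 9 of 32 was not shown to be an excess. For Cxcl9 they were WT day 7 replicate 3 (52 against 14 to 20, gap 0.842 of the range) and WT untreated replicate 1 (30 against 9 to 12, 0.857). For Cxcl10 it was KO tumor replicate 1 (295 against 23 to 111, 0.676), and for Cxcl11 the same array (15 against 7 to 9, 0.75). Cxcr3 had KO untreated replicate 3 (21 against 15 to 16, 0.833) and WT day 15 replicate 1 (25 against 12 to 14, 0.846). In the remaining 3 the array differed by 1 intensity unit from identical readings of the others, a gap of 1.0 of the range: Cxcl11 in KO day 7 replicate 2 and WT day 7 replicate 3, and Cxcr3 in KO day 7 replicate 1.

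The change from untreated differed between KO and WT by limma for Cxcl9 at day 7 (-5.91) and in tumors (-5.02) and for Cxcl10 at day 7 (-4.24). All 3 tests share the untreated groups, in which KO was higher.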

How the results depend on the processing

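No called difference of a member changed sign under any alternative. Cxcl9 between untreated KO and WT kept its call under 22 of 22 alternatives (4.03 to 5.51, adjusted p from 1.81e-06 to 0.00438 by limma), as did its fall in KO at day 7 (22 of 22, -5.37 to -4.13) and its WT tumor difference (24 of 24, 2.39 to 3.71). In numbers of members called, array weights gave 1 for KO against WT at day 7, KO tumors and WT day 7 against untreated and the day 15 interaction, 2 for WT day 15 against day 7 and against untreated, and 3 for WT tumors against untreated. Without the Krt5-rich arrays 1 was called between untreated KO and WT and 0 in the tumor interaction, in KO tumors against day 15 and in WT day 15 against untreated. With the title-code letter as a factor, or with a replicate block over only the groups compared, 0 were called in those last 3. The block over those groups and the fit of the groups alone each gave 3 for WT tumors against untreated, and the fit of the groups alone gave 0 for KO tumors against day 15 and WT day 15 against untreated. No normalization gave 2 for KO tumors against day 15. WT day 15 against untreated also had 0 with a pseudocount of 16, median centring, a replicate block over all arrays, the title-code number as a factor, or without both KO day 7 arrays with high Il17rc. Leaving out single arrays gave 1 to 3 members for the day 7 interaction, 0 to 3 for KO tumors against day 15, 0 to 1 for KO tumors against untreated, 0 to 2 for WT day 15 against untreated and 1 to 3 for WT tumors against untreated. Counts of all genes called moved more. Between KO and WT the untreated count of 389 became 227 to 890, day 7 51 became 0 to 3541, day 15 38 became 2 to 121 and tumors 9 became 1 to 21. In KO, day 7 against untreated 2089 became 1298 to 4857, day 15 against untreated 139 became 2 to 636, tumors against untreated 3548 became 2603 to 5713, day 15 against day 7 4316 became 1116 to 5149, and tumors against day 15 2506 became 187 to 3569. In WT the same 5 comparisons gave 283 (66 to 1460), 578 (47 to 940), 3891 (2398 to 5501), 511 (4 to 1950) and 3420 (1473 to 4586). The interactions gave 405 (206 to 2516) at day 7, 14 (1 to 97) at day 15 and 134 (83 to 339) in tumors. Most of the highest counts came with array weights, in which WT day 7 replicate 4 dominated its group. Among single arrays, KO day 15 replicates 4 and 2 moved KO day 15 against untreated to 39 and 636, WT day 15 replicates 4 and 3 moved WT day 15 against day 7 to 235 and 871, and KO day 15 replicate 1 moved KO tumors against day 15 to 1458. The cause of these moves was not tested. Cxcl11 and Cxcr3 lie near background, where sizes depend on the pseudocount, and 4 to 6 arrays a group leave wide intervals.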
